A study of Mus musculus with 6 samples.

Results

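The interferon response and class I presentation genes described here are 44 listed genes, chosen by name. They are interferon-stimulated genes, their STAT and IRF regulators, and the genes that cut, carry and load peptides for major histocompatibility complex (MHC) class I. Each gene was read from the probe set that named that gene alone and had the highest mean over the 6 arrays. Of the 44, 41 had such a probe set, out of 19938 genes with one. The dimmest genes were left out, which kept 38 of the 41 and 13292 genes in all. RNA was hybridised to Affymetrix mogene ST arrays from CXCL12-abundant reticular (CAR) cells, the perivascular stromal cells of bone marrow that secrete the chemokine CXCL12. The cells were sorted by flow cytometry from femur and tibia marrow of C57BL/6 mice aged 7 weeks, and formed 2 groups of 3 biological replicates, CAR cells targeted by Dmp1-Cre and CAR cells not targeted by it. Both groups carried the same genotype, Dmp1-Cre with 1 Cxcl12-gfp allele, and the cells of 1 mouse made 1 sample. The Cre transgene is driven by regulatory sequence of Dmp1, a gene best known from osteocytes and mature osteoblasts. How the sort told targeted from non-targeted cells is not given in the sources used here.

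Type I and type II interferons bind surface receptors whose Janus kinases activate STAT and IRF transcription factors. These factors bind the interferon-stimulated response element (ISRE) or the gamma-activated site (GAS) near their target genes. The target genes encode sensors of viral RNA, proteins that block viral entry or replication, and the machinery that shows peptides on MHC class I. Many of them are also held at a constant low level without infection, in stromal cells as in blood cells.

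The promoters of 5 genes are shown because the membrane genes Ifitm1, Ifitm2 and Ifitm3 were lower on every targeted array and lie beside each other on chromosome 7, and because Ifit1 and B2m carry clear copies of the element. Each sequence runs 5′ to 3′ over the 150 bases before the gene's start in RefSeq's GRCm38.p6 table, and Ifitm3 also has its first 30 bases. Capitals mark matches to the ISRE letters, GAAA and again GAAA with NN (any bases) between them, on either strand.
Ifitm1, chr7:140967926-140968075, plus strand: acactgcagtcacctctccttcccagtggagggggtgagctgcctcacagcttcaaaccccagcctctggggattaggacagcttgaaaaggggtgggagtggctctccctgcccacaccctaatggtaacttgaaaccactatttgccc
Ifitm2, chr7:140955962-140956111, minus strand: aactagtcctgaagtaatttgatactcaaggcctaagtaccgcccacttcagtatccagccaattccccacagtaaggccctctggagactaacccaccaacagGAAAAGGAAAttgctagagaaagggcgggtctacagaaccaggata
Ifitm3, chr7:141010745-141010894, minus strand: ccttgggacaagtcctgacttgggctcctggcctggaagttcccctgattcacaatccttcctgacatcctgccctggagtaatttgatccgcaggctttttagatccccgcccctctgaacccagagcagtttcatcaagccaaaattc
Ifitm3 (first 30 bases from the start), chr7:141010715-141010744, minus strand: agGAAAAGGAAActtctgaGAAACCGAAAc
Ifit1, chr19:34640739-34640888, plus strand: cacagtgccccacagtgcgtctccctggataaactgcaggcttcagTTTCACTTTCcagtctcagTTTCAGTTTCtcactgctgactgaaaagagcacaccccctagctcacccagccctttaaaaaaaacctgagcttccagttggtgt
B2m, chr2:122147537-122147686, plus strand: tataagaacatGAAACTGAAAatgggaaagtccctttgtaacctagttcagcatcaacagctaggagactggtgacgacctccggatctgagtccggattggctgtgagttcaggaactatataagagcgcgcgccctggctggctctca
Ifitm2 held the letters 46 bases before its start, and Ifitm3 held them from bases 3 and 20 after its start. Ifit1 held them on the opposite strand, 104 and 85 bases before the start, and B2m held them 139 bases before. The letters were not in the Ifitm1 window. Over windows from 250 bases before the start to 50 after it, 34 of the 44 genes had a window and 16 of these (47.1%) held the ISRE letters, against 3.99% of 27025 genes with a window and 3.44% of 32851 windows. The GAS letters, TTCNNNGAA, which read the same on both strands, stood in 10 of the 34 (29.4%), against 9.55% of genes and 8.30% of windows. In Bst2 and Ifitm3 a GAS match shared bases with an ISRE match. Of the 7 genes whose targeted arrays all lay below the non-targeted ones (named below), 4 held the ISRE letters, and of the 22 other tested genes with a window, 9 held them. A match describes these letters only.

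The labels were first set against genes that should follow them. Dmp1 was at log2 intensities of 7.51, 6.93 and 6.91 on the non-targeted arrays and 11.28, 10.03 and 9.89 on the targeted arrays, a difference of 3.28. Cxcl12, the defining CAR cell gene, was at 12.32, 12.65 and 12.63 against 12.32, 12.22 and 12.40, so both groups carried it. Cell type markers also differed, some by group and some by single arrays. Of 8 tested neutrophil markers, 7 were lower in targeted cells (median difference -1.25), and the summed intensity of the 9 listed ran from 8733 to 13682 on non-targeted arrays and from 915 to 11130 on targeted ones. The value of 915 came from targeted replicate 1, where S100a8 stood at 6.97 against 11.31 to 11.97 on the other 5 arrays. None of the 8 had separate groups. Without that array S100a8 and S100a9 differed by 0.02, Camp by -0.35, Ngp by -0.85 and Lcn2 by -1.52. All 9 CAR stroma markers were lower in targeted cells (median -0.25, sums of 32546 to 39351 against 27079 to 33966), and 1 of them, Lepr, had separate groups. All 5 tested osteoblast markers, Dmp1 among them, were higher (median 1.08), and 4 had separate groups. Over all genes 5.76% were separate and lower and 3.32% separate and higher. The osteoblast median was that of Col1a1, which differed by 0.51 without targeted replicate 1, and Ibsp differed by 0.05. Of 7 tested macrophage markers, 4 were higher and 3 lower (median 0.04). Among the lower was Vcam1 (-0.34), which is also on the CAR stroma list. The part of these shifts in the values that follow was not tested beyond leaving out arrays, and less RNA per cell cannot be told apart from fewer cells of a type in sorted bulk samples.

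The comparison asked how the interferon genes of CAR cells differ with Dmp1-Cre targeting. Most were slightly lower in targeted cells, and none passed the test. Of the 38 tested, 28 were lower in targeted cells and 10 were higher. Their median log2 difference was -0.10, against 51.1% lower and a median of -0.01 over all 13292 genes. No gene of the 38 passed an adjusted p of 0.05 in limma, and neither did any of the 13292 (0%, smallest adjusted p 0.384, for Dmp1). At an unadjusted p under 0.05, 2 of the 38 were counted (5.26%), Ifitm1 and Samhd1, against 4.77% of all genes (3.42% lower and 1.35% higher). Both were lower. The 3 targeted arrays all lay below the 3 non-targeted arrays for 7 genes (18.4%), and all above for 0. Over all genes these shares were 5.76% and 3.32%. The 7 were Ifitm1, Ifitm2, Ifitm3, Samhd1, Rsad2, Irf1 and B2m. With quantile normalization 3 of the 7 were still separate (Ifitm1, Samhd1 and Rsad2), and with arrays centred on the median 2 of them were (Ifitm1 and Rsad2), together with Xaf1. That is 3 of the 38 in each setting, where 4.96% and 4.71% of all genes were separate and lower. The excess over all genes was therefore smaller after either rescaling. When all probe sets of a gene were averaged, 5 remained separate, without Ifitm2 and Irf1. Without non-targeted replicate 2, 22 of the 38 genes were lower and the median was -0.04. Over all genes 52.6% were then lower, with a median of -0.013. The plot of all tested differences shows how small most of them were.

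**Figure D1:**
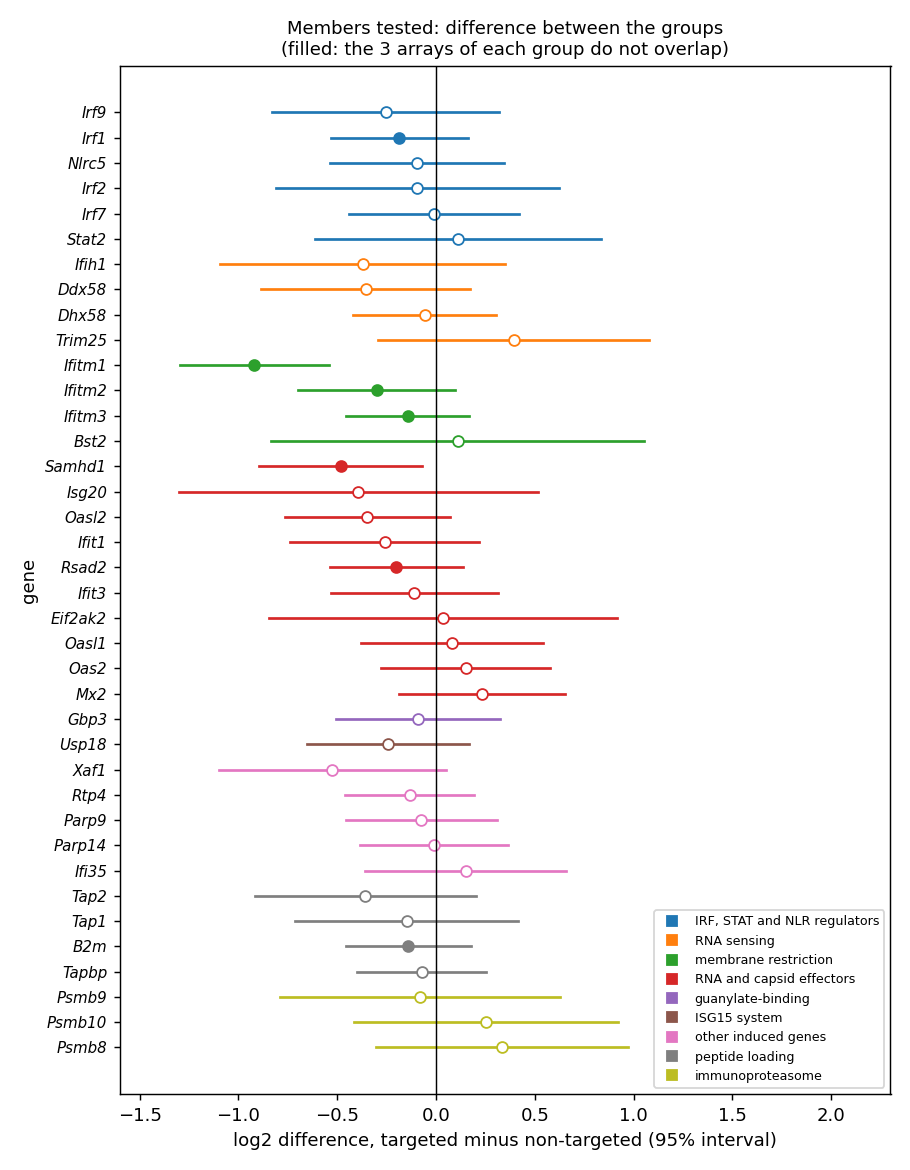
Log2 difference in intensity, targeted minus non-targeted CAR cells, for the 38 tested genes (y axis, coloured by role), with limma's 95% interval (n = 3 arrays a group). Filled points mark the 7 genes whose groups do not overlap, and the intervals of Ifitm1 (-0.92) and Samhd1 (-0.48) lie wholly below 0.

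The IFITM proteins sit in plasma and endosomal membranes and hinder the entry of enveloped viruses, and Bst2 (tetherin) holds budding virions at the cell surface. Ifitm1 had the largest difference of all 38. It was at 11.55, 11.20 and 11.34 on the non-targeted arrays and 10.29, 10.57 and 10.48 on the targeted arrays. The gap between the groups was wider than the spread within either of them. The means were 11.36 ± 0.17 and 10.45 ± 0.14 (SD, n = 3), a difference of -0.92 (SE 0.16, 95% interval -1.30 to -0.54), which is 1.89-fold. Its limma adjusted p was 0.701, and its p ranked 9 of the 13292 genes. That rank ran from 2 to 186 over 15 alternative settings (118 with quantile normalization). The exact two-sided permutation p over 3 against 3 arrays was 0.1, the smallest that 3 against 3 can give. Any gene with separate groups gives this value, so it only restates the separation. Over the same settings the difference ran from -1.04 to -0.75 and the adjusted p from 0.326 to 1.00. Without targeted replicate 1, the array with few neutrophil transcripts, the difference was -0.84.

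A dimmer Ifitm1 probe set, which the choice of the brightest had set aside, pointed the same way. It was at 10.62, 10.63 and 10.62 on the non-targeted arrays and 9.50, 9.50 and 9.37 on the targeted arrays. The non-targeted arrays were almost equal, and the targeted arrays lay more than 1 log2 unit below them. The difference was -1.17 (SE 0.13, interval -1.48 to -0.85), or 2.24-fold. When each of 14526 probe sets naming 1 gene was fitted on its own, it had the smallest p of all, ahead of that of Dmp1, with a limma adjusted p of 0.308. Both probe sets of Ifitm1 therefore had separate groups, and neither passed the threshold.

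Ifitm2 and Ifitm3 differed by less. Ifitm2 was at 12.33, 12.41 and 12.44 against 11.81, 12.31 and 12.15, with targeted replicate 1 the lowest and replicate 2 close to the non-targeted arrays. The difference was -0.30 (SE 0.17), and -0.16 without targeted replicate 1. The 2 other Ifitm2 probe sets both gave -0.26, and their groups overlapped. Ifitm3 was at 13.49, 13.56 and 13.55 against 13.39, 13.38 and 13.40, a gap that was narrow but free of overlap. Its difference was -0.14 (SE 0.13, interval -0.45 to 0.17), and -0.05 with quantile normalization. The IFITM genes are close in sequence, and whether probes of one read transcripts of another was not tested.

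Bst2 had no common direction. It was at 10.36, 11.37 and 10.61 against 11.73, 10.68 and 10.26, so that targeted replicate 1 was the highest of the 6 arrays and targeted replicate 3 the lowest. The difference of 0.11 ran from -0.31 to 0.43 as single arrays were left out. Bst2 is also a marker of plasmacytoid dendritic cells. Their other tested markers, Tcf4, Siglech and Irf8, had no common pattern. Tcf4 was highest on targeted replicate 1, as Bst2 was, with a difference of 0.27. Siglech was at 6.18, 6.17 and 6.14 against 6.10, 6.30 and 6.64, lowest on targeted replicate 1. These values are close to the filter's log2 intensity of 6.00. Irf8 was lower on every targeted array (-0.28), and the markers Ccr9 and Spib were dim. The part of plasmacytoid dendritic cell transcripts in the Bst2 values was not tested.

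The other IFITM genes with a value were looked at after their values were seen. Ifitm5, the osteoblast member, which neighbours the others on chromosome 7 and acts in bone mineralisation, was at 6.61, 6.64 and 6.65 against 6.56, 7.14 and 6.99. Targeted replicates 2 and 3 were higher and replicate 1 was not, with a difference of 0.27 in the opposite direction to Ifitm1. Ifitm7 differed by -0.06 and Ifitm10 by 0.09. Ifitm6 was dim, at 4.93, 5.14 and 5.75 against 4.92, 7.31 and 5.20.

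**Figure D2:**
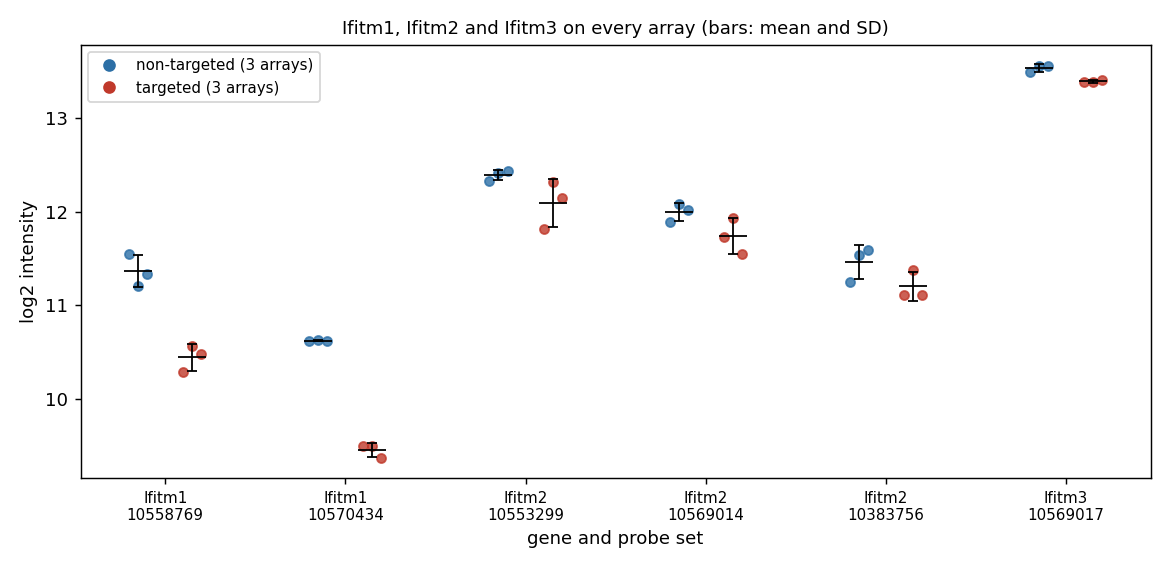
Log2 intensity on each array for the 2 probe sets of Ifitm1, the 3 of Ifitm2 and that of Ifitm3 (x axis), in non-targeted (blue) and targeted (red) CAR cells, n = 3 arrays each, with bars for the mean and SD. Both Ifitm1 probe sets show a wide gap between the groups (-0.92 and -1.17), and Ifitm3 a narrow one (-0.14).

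The RNA and capsid effectors degrade, bind or alter viral nucleic acid. Of 13 listed, 10 were tested, with 6 lower, 4 higher and a median of -0.16. Samhd1, which breaks down the deoxynucleotides that reverse transcription needs, was at 10.87, 11.36 and 11.13 against 10.78, 10.49 and 10.66. The groups did not overlap, but non-targeted replicate 1 was only slightly above targeted replicate 1. The means were 11.12 ± 0.25 and 10.64 ± 0.15 (SD, n = 3), and the difference was -0.48 (SE 0.18, interval -0.90 to -0.07), 1.4-fold, with a limma adjusted p of 0.970. It ran from -0.61 to -0.36 as single arrays were left out. Rsad2 (viperin), whose product makes a chain-terminating nucleotide, was at 6.88, 6.72 and 6.79 against 6.49, 6.59 and 6.71. The highest targeted array almost met the lowest non-targeted one, and the difference was -0.20.

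Oasl2, of the oligoadenylate synthetase family, was at 9.58, 9.37 and 9.26 against 9.33, 8.98 and 8.86. Targeted replicate 1 lay within the non-targeted values and the others below them, with a difference of -0.35. Ifit1, which binds viral RNA lacking the host's cap methylation and whose promoter is shown above, was at 10.12, 10.52 and 10.52 against 10.42, 10.13 and 9.81. Its groups overlapped, with a difference of -0.26, and the related Ifit3 differed by -0.11. Isg20, an exonuclease, was at 7.19, 8.86 and 7.88 against 7.31, 7.85 and 7.58. Non-targeted replicate 2 stood far above the rest, and the difference of -0.39 was smaller than that group's SD of 0.84. The higher effectors were Mx2 (0.23, with targeted replicate 2 alone above the filter's level), Oas2 (0.15), Oasl1 (0.08) and the RNA-activated kinase Eif2ak2 (0.03). Ifit2, Oas3 and Mx1 were dim and were not tested. Mx1 is defective in C57BL/6 mice, and its probe set stood between 4.75 and 4.94 on all 6 arrays.

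Among the RNA sensors, Ifih1 (MDA5) and Ddx58 (RIG-I) recognise viral double-stranded RNA, Dhx58 (LGP2) tunes them, and Trim25 ubiquitinates RIG-I. Ifih1 was at 8.10, 8.69 and 8.29 against 8.46, 8.20 and 7.31. Only targeted replicate 3 lay below all non-targeted arrays, and the difference was -0.37. Ddx58 was at 7.73, 8.0 and 7.63 against 7.68, 6.97 and 7.64, where targeted replicate 2 alone was low (-0.36). Trim25 was at 6.76, 7.05 and 7.08 against 7.99, 6.78 and 7.30, and its difference of 0.39 was 0.08 without targeted replicate 1. Dhx58 differed by -0.06. In Ifih1, Ddx58 and Trim25 a different targeted array stood farthest out.

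The regulators carry the interferon signal to DNA. Of the 6, 5 were lower and 1 was higher (median -0.10). Irf1, a GAS-driven transcription factor that keeps class I genes active, was at 8.38, 8.39 and 8.59 against 8.15, 8.38 and 8.28. Targeted replicate 2 almost met the lowest non-targeted arrays, and the difference was -0.19 (SE 0.15). A second Irf1 probe set was at 7.54, 7.33 and 7.62 against 7.40, 7.08 and 8.44 and gave 0.15, so that the direction for Irf1 turned with the probe set. Irf9, the DNA-binding part of the type I interferon complex, was at 8.03, 7.99 and 7.66 against 7.55, 7.23 and 8.14, with targeted replicate 3 the highest array. Irf2 (-0.09), Irf7 (-0.01) and Stat2 (0.11) differed by less than their spread.

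Nlrc5, the transactivator that switches on class I genes, was read by 19 probe sets naming it alone. The brightest was at 10.47, 10.18 and 10.23 against 9.86, 10.37 and 10.35, where targeted replicate 1 was low and the other 2 lay among the non-targeted arrays (-0.10). The 18 probe sets that passed the filter gave 9 higher and 9 lower, from -1.10 to 1.51. The one with the lowest difference was at 8.81, 8.48 and 8.35 against 7.37, 7.48 and 7.50, a separate 2.14-fold difference with the fourth smallest p of the 14526 probe sets and a limma adjusted p of 0.740. Another stood at 4.65, 5.07 and 10.26 on the 3 targeted arrays, an SD of 3.13. The probe sets of Nlrc5 gave no common direction, as the plot of its probe sets shows.

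**Figure D3:**
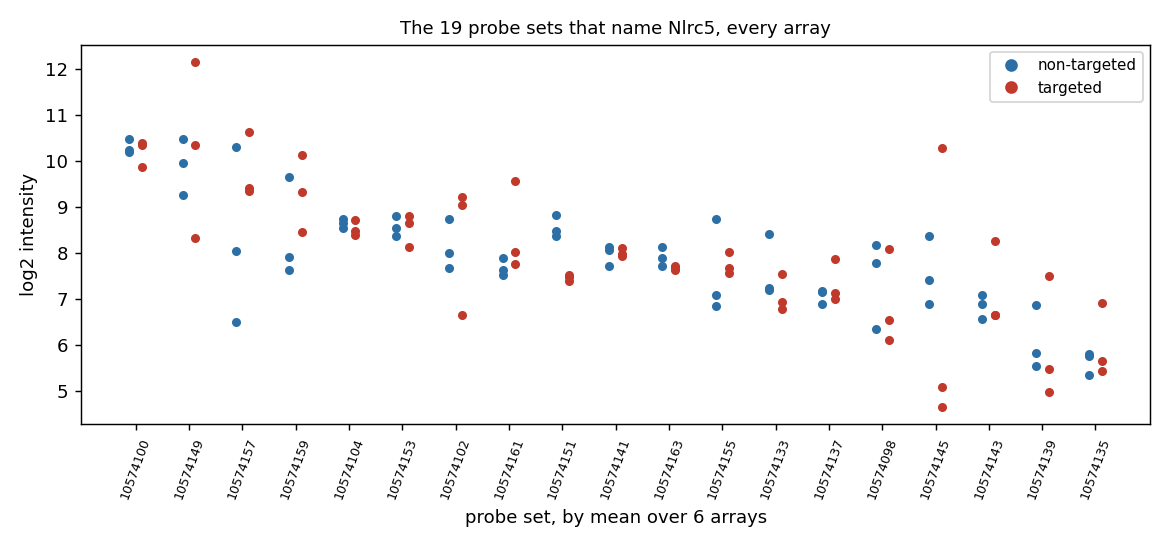
Log2 intensity on each array for the 19 probe sets naming Nlrc5 (x axis, from the brightest to the dimmest), non-targeted arrays in blue and targeted arrays in red, n = 3 each. Of the 18 tested, 9 are higher and 9 lower in targeted cells, and the points of several probe sets spread over more than 1 log2 unit within a group.

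Gbp3, a guanylate-binding protein of cell-autonomous immunity, was at 7.62, 7.87 and 7.62 against 7.90, 7.49 and 7.45, with overlapping groups and a difference of -0.09. Usp18, which removes ISG15 from proteins and dampens the type I receptor, was at 8.11, 8.34 and 8.37 against 8.06, 8.25 and 7.77, a difference of -0.24 in which targeted replicate 3 was lowest. Isg15 itself, the ubiquitin-like modifier, was read only by a probe set that also names Gm9706, at 7.96, 8.15 and 8.15 against 8.09, 8.19 and 8.13. That is a difference of 0.05. Gbp2 shared its probe set with Gbp2b, which stood at 6.92, 7.11 and 6.41 against 6.26, 6.23 and 6.85 (-0.37). Targeted replicate 3 lay among the non-targeted arrays there. Ifi44 was not analysed here.

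Of the remaining interferon-stimulated genes, Xaf1, which counters an inhibitor of apoptosis, had the largest difference. It was at 8.24, 7.59 and 7.64 against 7.29, 7.65 and 6.95. Targeted replicate 2 overlapped the non-targeted arrays, and the difference was -0.52 (SE 0.25, interval -1.10 to 0.05). Rtp4, a chaperone of surface receptors, was at 10.77, 10.80 and 10.90 against 10.66, 10.79 and 10.62 (-0.13). Parp9 (-0.07) and Parp14 (-0.01), partners in ADP-ribosylation, and Ifi35 (0.15) were close to 0.

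Class I presentation splits into peptide loading and peptide cutting. All 4 loading genes were lower, with a median of -0.14. B2m, the light chain of every class I molecule, was at 13.38, 13.47 and 13.36 against 13.29, 13.20 and 13.29. The groups were separate by a narrow margin, with a difference of -0.14 (SE 0.14, interval -0.46 to 0.18). Tap2, a subunit of the peptide transporter, was at 7.03, 7.94 and 7.74 against 7.22, 7.28 and 7.13, where non-targeted replicate 1 was the lowest array of all (-0.36). Its partner Tap1 differed by -0.15 and tapasin (Tapbp) by -0.07. The heavy chains H2-K1 and H2-D1 share probe sets, which stood at 10.64, 11.17 and 10.95 against 10.89, 10.72 and 10.60 (-0.18), and at 12.08, 12.64 and 12.40 against 12.34, 12.30 and 12.18 (-0.09). Both overlapped.

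Psmb8, Psmb9 and Psmb10 are the interferon-inducible catalytic subunits that replace Psmb5, Psmb6 and Psmb7 in the immunoproteasome. Psmb8 was at 8.67, 9.79 and 9.12 against 9.66, 9.47 and 9.45, a difference of 0.33 within the non-targeted spread (SD 0.56). Psmb10 was at 9.58, 10.53 and 9.88 against 10.43, 10.51 and 9.82 (0.25), and Psmb9 was at 8.69, 9.71 and 8.85 against 9.43, 8.79 and 8.79 (-0.08). In all 3, non-targeted replicate 2 was the highest array. The constitutive partners differed by 0.25 (Psmb5), 0.32 (Psmb6) and -0.43 (Psmb7), the last 0.26 without targeted replicate 3. The inducible-to-constitutive log ratio shifted by 0.08 for Psmb8 over Psmb5, where the ratio's SD was 0.18 and 0.17 in the 2 groups. It shifted by -0.40 for Psmb9 over Psmb6 (SD 0.25 and 0.08) and by 0.68 for Psmb10 over Psmb7 (SD 0.22 and 0.81). These ratios were not tested.

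The values also differed by array. Non-targeted replicate 2 was the highest of the 6 arrays for 16 of the 38 genes (42.1%) and the lowest for 0, against 21.4% and 18.8% of all genes. Targeted replicate 3 was the lowest for 12 (31.6%, against 19.1% of all genes) and the highest for 2. Targeted replicate 1 was the highest for 6 and the lowest for 7. The mean log2 intensity of the 38 was 8.70, 9.01 and 8.81 on non-targeted arrays and 8.83, 8.72 and 8.61 on targeted arrays, so the groups overlapped: targeted replicate 1 lay above non-targeted replicates 1 and 3. The median pooled SD of the genes was 0.224, against 0.236 over all genes.

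**Figure D4:**
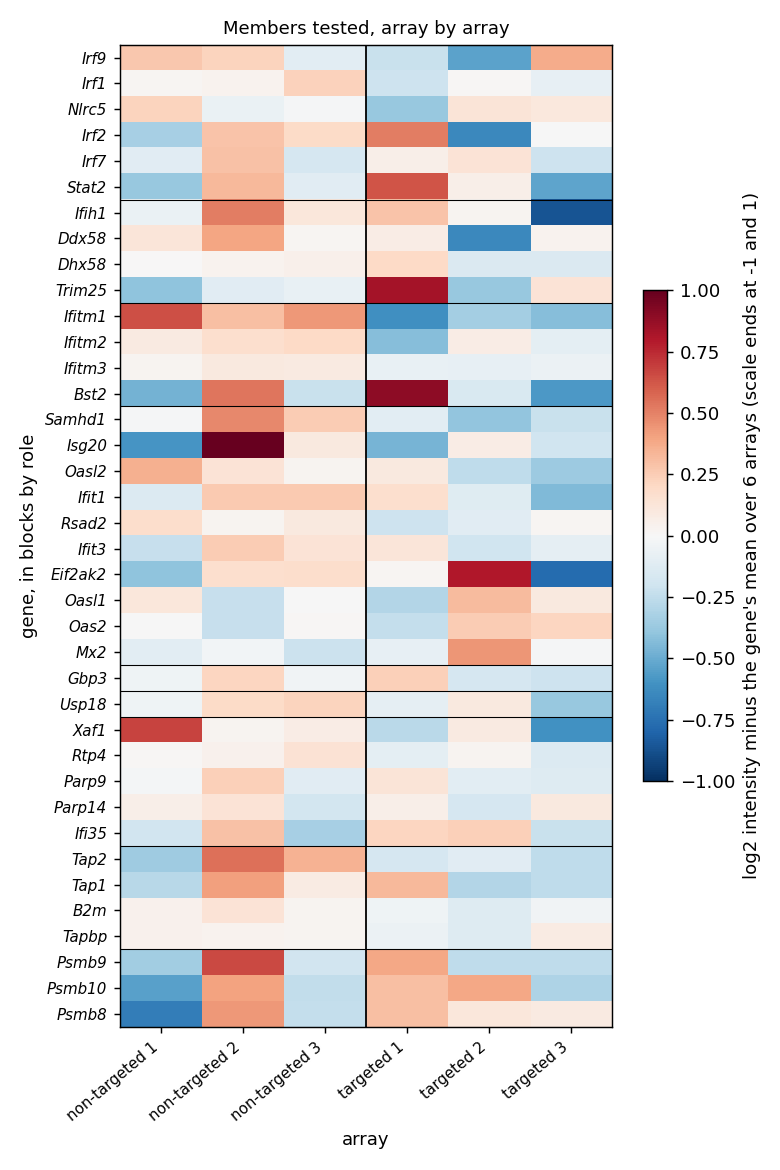
Heat map of the 38 tested genes (rows, in blocks by role) on the 6 arrays (columns), coloured by log2 intensity minus the gene's mean over the arrays, with the colour scale ending at -1 and 1. Non-targeted replicate 2 is the array most often highest (16 genes) and targeted replicate 3 the one most often lowest (12 genes).

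Other genes of the pathway came from lists made by role, and 0 genes of any list passed the threshold. Of 37 other interferon-stimulated genes tested, 24 were lower and 13 higher (median -0.15, and -0.04 without targeted replicate 3). Of the 37, 3 had an unadjusted limma p under 0.05, against 4.77% of all genes. Separate groups were seen for 5 lower genes and for 1 higher gene, Parp11 (0.31), against 5.76% and 3.32% of all genes. Cxcl10, a chemokine strongly induced by interferon gamma, was at 9.02, 8.57 and 8.92 against 7.36, 7.32 and 7.82. All targeted arrays lay well below, with means of 8.84 ± 0.24 and 7.50 ± 0.28 (SD, n = 3) and a difference of -1.33 (SE 0.20), 2.52-fold. Its limma adjusted p was 0.701, and the difference ran from -1.49 to -1.17 over the alternatives. Ifi203, a DNA-binding protein of the HIN-200 family, was at 7.50, 7.18 and 7.03 against 6.15, 6.64 and 6.33, also separate, and 1.82-fold lower (limma adjusted p 0.727). Znfx1, a helicase that binds viral RNA, was at 7.86, 8.15 and 8.0 against 7.71, 7.22 and 7.42, a difference of -0.55.

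Of 20 tested receptor and signalling genes, 12 were lower and 8 higher. Their median was -0.04, or 0.027 without non-targeted replicate 2. Of the 20, 3 were separate and lower and 0 separate and higher, against 5.76% and 3.32% of all genes. They were Ifnar2, Ifngr1 and Irf8. The type I receptor chain Ifnar2 was at 11.92, 12.19 and 11.99 against 11.79, 11.80 and 11.50, a difference of -0.34, while its partner Ifnar1 differed by 0.10. The type II receptor chain Ifngr1 was at 9.82, 9.98 and 9.71 against 9.65, 9.51 and 8.97, a difference of -0.46, with Ifngr2 at -0.04. Irf8, a transcription factor of myeloid and plasmacytoid dendritic cells, was at 7.61, 7.42 and 7.27 against 7.23, 7.08 and 7.15 (-0.28). In both receptors the chain with separate groups was lower on each targeted array by a small margin. The kinase Jak2 was at 7.01, 7.45 and 7.39 against 6.77, 6.57 and 7.02, where targeted replicate 3 overlapped the lowest non-targeted array (-0.50). Of 11 nucleic acid sensing genes, 7 were lower and 4 higher (median -0.16). Tbk1, the kinase that activates IRF3, was at 7.31, 7.69 and 7.56 against 6.69, 7.03 and 7.00, separate, with a difference of -0.61 and a limma adjusted p of 0.825. Myd88 differed by -0.44 and Tlr3 by -0.35.

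The interferons themselves were often dim. Of 20 listed ligands, 16 had a value and 9 were tested, 5 higher and 4 lower, with a median of 0.01. Ifnb1 was dim, at 5.71, 5.20 and 5.34 against 5.12, 5.60 and 5.73, and Ifng was at 6.28, 6.08 and 6.32 against 6.20, 6.25 and 6.31. Neither had separate groups. Of the 9 tested, Ifna2 (0.24) and Ifnl2 (0.20) had all targeted arrays above the non-targeted ones, and Ifnz differed by -0.28. That is 2 separate and higher and 0 separate and lower, against 3.32% and 5.76% of all genes. Of the 7 dim ligands, which were not tested, Ifna4 and Ifnk also had all targeted arrays above, with mean differences of 0.23 and 0.43. For Ifnk the lowest targeted array (3.999) almost met the highest non-targeted one (3.996). Its difference was smaller than the targeted SD of 0.47, with targeted replicate 2 the highest at 4.92. No share of dim genes is given for comparison.

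Of 14 further class I genes tested, 10 were lower and 4 higher. Their median of -0.07 was 0.035 without non-targeted replicate 2 and 0.042 without targeted replicate 3. Among them were the trimming peptidase Erap1 (-0.50), the editor Tapbpl (-0.42) and the class I-like Mr1 (0.52). Of the 14 constitutive proteasome subunits, 9 were higher and 5 lower, with Psma7 at 0.43. Their median of 0.13 rested on single arrays: it was -0.13 without non-targeted replicate 1, 0.37 without non-targeted replicate 2, and -0.18 with replicates 2 and 3 alone. Of 7 class II genes, 5 were lower and 2 higher (median -0.28). The invariant chain Cd74 was at 6.60, 6.91 and 5.87 against 5.63, 5.69 and 5.66. Its 3 targeted values and 1 non-targeted value lay below the filter's log2 intensity of 6.00, so it passed through the non-targeted arrays, and its difference of -0.80 is set against dim values. H2-Ab1 differed by -0.62 and H2-Eb1 by -0.28. Class II genes mark antigen-presenting leukocytes, B cells among them. Of 5 tested B cell markers, 4 were lower and 1 higher (median -0.02), and the summed intensity of the list was 2706 to 3337 on non-targeted and 1814 to 3558 on targeted arrays. The brightest of the list on every array was Ebf1, at 10.72, 11.37 and 11.22 against 11.50, 10.51 and 10.35. The sum therefore mostly follows Ebf1. Cd79a and Ms4a1 were dim, and Pax5 (6.03 to 6.22) and Cd79b (6.54 to 6.83) stood close to the filter's level on all arrays. Whether the Ebf1 values came from B cells was not tested, so the sum is no measure of B cell transcripts. The pre-B cell gene Vpreb1 had the largest difference of the list. It was at 9.19, 7.81 and 9.16 against 8.33, 6.22 and 6.98, a difference of -1.54 with overlapping groups. The other tested markers differed by less: Ebf1 by -0.31, Cd79b by -0.02, Igll1 by -0.01 and Pax5 by 0.11. The part of B cell and macrophage transcripts in the class II values was not tested.

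**Figure D5:**
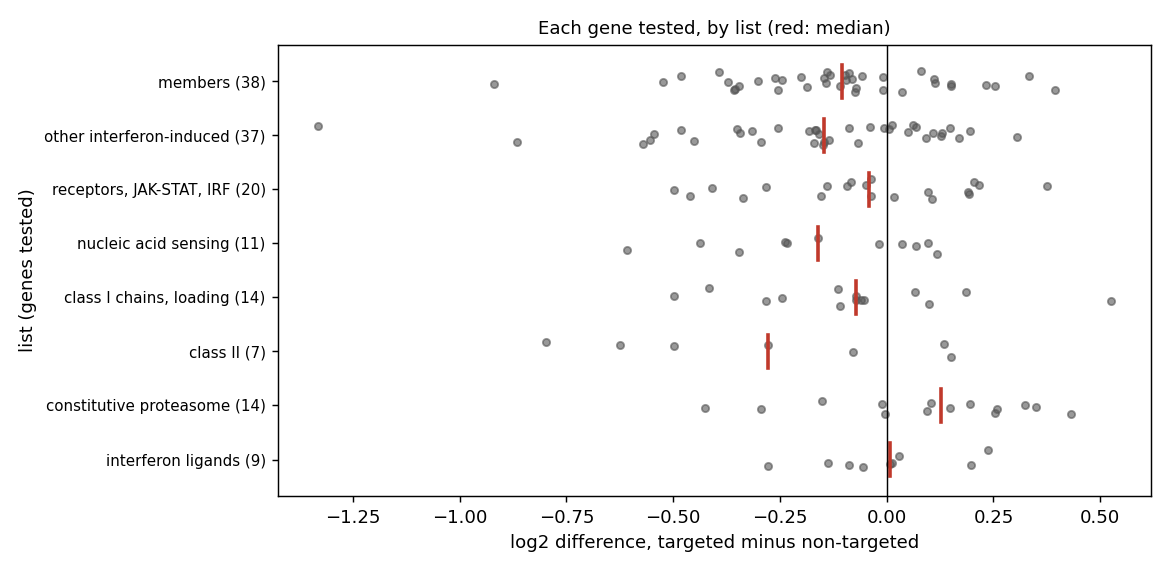
Log2 difference, targeted minus non-targeted, for each tested gene of the 38 and of the other pathway lists, 1 point a gene, with the list median as a bar. Medians run from -0.28 for class II presentation to 0.13 for the constitutive proteasome, and Cxcl10 at -1.33 lies lowest.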

How the data were processed

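The authors deposited linear intensity values per probe set, which the submitters' processing notes trace to RMA (Affymetrix Expression Console 1.4). For annotation and build, the sources used here name none. RMA as usually run gives arrays a common distribution, which can hide a shift shared by most genes. The log2 of each intensity was taken. Probe sets were named through the platform annotation with symbols updated in RefSeq's GRCm38.p6 table: 21789 of 35556 named 1 gene, 1621 named several, and 12146 are unnamed here. The brightest per gene was kept, the dimmest 33.3% of genes (log2 of 6.00 or less) were left out, and lmFit and eBayes of limma 3.58.1 (R 4.3.3) were run on targeted minus non-targeted arrays, Benjamini-Hochberg adjusted over 13292 genes at 0.05, with 95% intervals of the moderated fit. The fit was tested on simulated data. SciPy 1.17.1 gave the permutation test and matplotlib 3.10.9 the figures.

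No detection calls were used, and 3 arrays a group limit the precision. Array medians were 79.4 to 87.5 and array correlations 0.91 to 0.96. Replicates are labelled biological, and the labels do not say whether both populations of a number came from 1 mouse. The members and lists were chosen with earlier results of these data known. Array values are given, within each role, for the 2 genes of smallest p, the brightest gene and every gene with separate groups, with up to 3 genes of each pathway list. Other values named were chosen after they were seen. Alternatives covered the filter, the normalization, the variance model, the choice of probe set, a replicate block and each array left out.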

Additional observations from a re-analysis of the deposited data

How the results depend on the processing

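The count of 0 genes past the threshold held in every alternative but the replicate block, which gave 1 gene, Dmp1 (adjusted p 0.0153), and 0 of the 38. Deviations of same-numbered arrays from their group means correlated at -0.256, -0.124 and 0.065. With 3 arrays a group, such values cannot settle whether a number marks 1 mouse. The 7 genes with separate groups became 3 with quantile normalization, 3 with centred arrays, 5 with the mean of probe sets and 24 with replicates 2 and 3 alone, where 51.6% of all genes are separate. Leaving out 1 array gave 9 to 13, but the share of all genes with separate groups then also rose. It was 14.5% to 27.5%, against 9.07% with all 6 arrays, so the higher counts are no sign of a steadier result. The median of the receptor and signalling list was -0.14 with replicates 2 and 3 alone (-0.13 to 0.027 with 1 array left out), and that of class II -0.51. With 1 array left out the medians ran from -0.13 to 0.37 for the constitutive proteasome, -0.18 to 0.042 for class I, -0.18 to -0.04 for the other interferon-stimulated genes, -0.43 to -0.16 for class II, -0.065 to 0.014 for ligands and -0.17 to -0.051 for sensing, and with replicates 2 and 3 alone that of the proteasome was -0.18. Of 683 values for 44 named genes, 658 kept direction and side and 25 turned sign, with 35 genes never turning. Nlrc5 gave 0.067 as a mean of probe sets and 0.15 with replicates 2 and 3 alone (-0.19 to 0.068 with 1 array left out), and its turned single probe sets, an alternative added after seeing the data, gave 0.38, 1.51, 0.91, 0.16, 0.77, 0.046, 0.19, 0.26 and 0.34, with 0.15 for the second of Irf1. With replicates 2 and 3 alone Psmb10 was -0.040, Trim25 -0.027, Mr1 -0.029, Psmb6 -0.14 and Ifnar1 -0.048. With 1 array left out Ifnar1 ran from -0.065 to 0.26, Ifngr2 from -0.14 to 0.087 (0.023 with quantile normalization) and Psmb7 from -0.78 to 0.26. The causes were not tested. Signal over background was not measured, so low values have no order.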

Other observations

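Some interferon-regulated genes were read only by probe sets that name more than 1 gene, and these were singled out after their values were seen. The probe set of H2-T23 and H2-T-ps, whose class I-like product is read by natural killer cell receptors, was at 9.14, 9.22 and 9.08 in non-targeted cells and 9.30, 9.29 and 9.33 in targeted cells. All targeted arrays lay above, by 0.16, the opposite direction to B2m. The probe set of Ifi47 and Olfr56, of which Ifi47 is an interferon-inducible GTPase, was at 8.84, 9.19 and 8.92 against 8.79, 8.74 and 8.50, all below, by a difference of -0.31. Igtp and Irgm2, GTPases of the same family, shared a probe set at 8.74, 9.32 and 9.13 against 9.30, 8.72 and 8.29, with overlapping groups (-0.30). None of these passed the threshold in limma.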
